A study of Mus musculus with 8 samples.

Results

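The collagen genes of the fetal mouse heart were examined at E18.5 (embryonic day) in 4 embryos labelled WT and 4 labelled SIRT1 KO, each heart on its own one-color Agilent array of the mouse genome. Every probe whose accession matched a RefSeq gene with a symbol of the form Col, number, a, number was kept. This gave 76 probes of 44 collagen genes, among 41174 probes in all, of which 28223 carried the name of 19096 genes. The collagen genes were divided into 11 fibrillar, 8 basement membrane and 25 other genes. All embryos were of the C57BL/6 strain per the labels (C57BL/6J in the study's methods), from mice kept on a chow diet with no treatment. SIRT1 KO embryos carry a germ-line deletion of *Sirt1* throughout the body, so that no cell type of the heart is spared, and they were bred by mating heterozygous parents; hearts of either sex were used. Signal is given as log2 of a spot's processed intensity minus the 75th percentile of its array, so that 0 marks the 75th percentile. Signals of different probes cannot be set against each other, so differences are given for 1 probe between hearts or, for marker lists, for the sum of the same probes between hearts. Log2 differences (log2 fold changes) are SIRT1 KO minus WT, each with its standard error (SE) and the adjusted p of limma.

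Collagens are secreted proteins whose chains wind around each other in a helix of 3 strands and then assemble outside the cell. Fibrillar collagens form the tensile fibers of the interstitium, type IV collagen forms the sheet-like network of basement membranes around cardiomyocytes and vessels, and the remaining types coat fibrils, link them to cells, span the cell membrane or form finer networks. In the fetal heart the interstitial types come mostly from fibroblasts, and the basement membrane types from endothelial cells, mural cells and cardiomyocytes.

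The 75th percentile of processed intensity ran from 934 to 1032 for the WT hearts and from 779 to 900.1 for the hearts labelled SIRT1 KO. The share of probes well above background ran from 59.5% to 64.9%. The WT arrays share 1 slide and 1 scan day and the other 4 arrays share another slide and day, so in every difference below genotype, slide and scan day cannot be told apart. All 10 cardiomyocyte markers were well above background, with summed signals between 1969 and 2143 times the 75th percentile in the WT hearts and between 1992 and 2412 times in the others. One of the 16 cardiomyocyte probes was called, where 4.91% of all tested probes were, namely the dimmer *Myh7* probe, which was higher by 0.36 ± 0.07 (SE; limma, adjusted p = 0.0298). Of 7 lung epithelium markers, 4 were well above background on no array. The brighter of the 2 *Sirt1* probes (A_52_P358612) read -0.15, 0.32, 0.00 and 0.01 in the WT hearts and 0.65, 0.50, 0.43 and 0.75 in the hearts labelled SIRT1 KO. The log2 difference was 0.54 ± 0.12 (SE; limma, adjusted p = 0.0332). This is above WT, not below it, but with 1 heart left out the probe passed the threshold in only 2 of 8 fits, those without WT heart 2 or heart 3 labelled SIRT1 KO, and it did not pass in the methods' analysis of variance. The other *Sirt1* probe had a log2 difference of -0.11 ± 0.11 (SE; limma, adjusted p = 0.59). Whether either probe lies in the deleted part of the gene is not given in the sources used here, and the genotype is given below as labelled.

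Promoter sequences of RefSeq (GRCm38.p6, 250 bases before to 50 bases after the start of transcription) were found for 35 of the 44 collagen genes. The first pair is shown because *Col4a1* and *Col4a2*, which encode the chains of the most widespread type IV collagen, lie head to head and start 21 bases apart, so that their windows overlap. The *Col4a1* window is chr8:11312777-11313076, minus strand, and the *Col4a2* window is chr8:11312555-11312854, plus strand. Capitals mark the 78 bases that both windows hold, read 5′ to 3′ on the strand of each gene.
Col4a1: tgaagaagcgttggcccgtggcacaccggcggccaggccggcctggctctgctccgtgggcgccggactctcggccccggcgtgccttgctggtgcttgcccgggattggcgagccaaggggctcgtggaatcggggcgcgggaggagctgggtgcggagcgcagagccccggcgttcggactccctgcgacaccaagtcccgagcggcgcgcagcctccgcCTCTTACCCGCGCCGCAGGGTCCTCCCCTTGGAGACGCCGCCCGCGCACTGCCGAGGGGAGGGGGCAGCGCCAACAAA
Col4a2: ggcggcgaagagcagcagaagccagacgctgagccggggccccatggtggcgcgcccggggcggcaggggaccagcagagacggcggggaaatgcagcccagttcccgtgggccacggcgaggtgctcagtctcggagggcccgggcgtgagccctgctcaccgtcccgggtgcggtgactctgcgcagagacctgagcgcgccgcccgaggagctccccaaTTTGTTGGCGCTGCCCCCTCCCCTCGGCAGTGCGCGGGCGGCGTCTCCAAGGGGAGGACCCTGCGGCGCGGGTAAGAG

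The next 4 are the promoters of genes with a probe past the threshold of the genotype comparison, *Col4a6* (chrX:141474027-141474326, minus strand), *Col5a3* (chr9:20815018-20815317, minus strand), *Col9a2* (chr4:121039316-121039615, plus strand) and *Col24a1* (chr3:145292222-145292521, plus strand). *Col2a1* had such a probe as well. Capitals mark matches on either strand to the GC box GGGCGG, the CCAAT box, the TATA box TATAAA and the SOX and TCF core ACAAAG, and no match overlaps another.
Col4a6: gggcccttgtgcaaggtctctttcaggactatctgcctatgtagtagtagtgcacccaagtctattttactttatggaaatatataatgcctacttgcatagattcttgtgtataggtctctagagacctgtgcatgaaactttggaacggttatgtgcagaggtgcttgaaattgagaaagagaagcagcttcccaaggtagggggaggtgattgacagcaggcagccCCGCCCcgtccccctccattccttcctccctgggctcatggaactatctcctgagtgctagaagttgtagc
Col5a3: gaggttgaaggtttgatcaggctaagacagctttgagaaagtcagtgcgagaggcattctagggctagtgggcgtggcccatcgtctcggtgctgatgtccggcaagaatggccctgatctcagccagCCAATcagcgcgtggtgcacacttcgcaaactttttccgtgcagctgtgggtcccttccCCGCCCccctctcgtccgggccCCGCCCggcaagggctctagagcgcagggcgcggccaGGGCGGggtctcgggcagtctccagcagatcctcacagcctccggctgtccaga
Col9a2: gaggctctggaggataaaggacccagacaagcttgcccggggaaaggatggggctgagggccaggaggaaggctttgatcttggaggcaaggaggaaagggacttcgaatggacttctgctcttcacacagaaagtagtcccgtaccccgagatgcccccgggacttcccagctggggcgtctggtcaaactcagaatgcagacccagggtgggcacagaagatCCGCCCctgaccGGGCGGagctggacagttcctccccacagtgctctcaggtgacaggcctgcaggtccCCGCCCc
Col24a1: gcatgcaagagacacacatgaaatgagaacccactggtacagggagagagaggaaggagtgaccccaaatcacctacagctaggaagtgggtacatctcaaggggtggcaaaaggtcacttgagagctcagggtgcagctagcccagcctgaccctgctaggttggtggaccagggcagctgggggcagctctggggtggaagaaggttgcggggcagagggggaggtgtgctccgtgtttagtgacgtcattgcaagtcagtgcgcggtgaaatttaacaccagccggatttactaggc

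The GC box occurred in the windows of *Col4a6*, *Col5a3* and *Col9a2* and not in that of *Col24a1*, and a CCAAT box occurred in that of *Col5a3*. Of all 32851 windows of this length, 35.7% held a GC box, against 60.5% of the 38 collagen windows. These 38 windows belong to 35 genes, and those of *Col4a1* and *Col4a2* hold the same GC box in their shared bases. The CCAAT box was in 37.4% of all windows and 34.2% of collagen windows, the TATA box in 13.6% and 13.2%, and the SOX and TCF core in 18.7% and 13.2%. The starts of *Col4a5* and *Col4a6*, another head-to-head pair on chromosome X, lie 1343 bases apart, so that their windows do not meet. A match is a run of letters and was not tested for binding.

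Of the 76 collagen probes, 55 of 37 genes exceeded background clearly in 4 or more of the 8 hearts and were tested, 47 of them above background on all 8. Between genotypes, 31 of the tested probes had a log2 difference above 0 and 24 below, with a median of 0.04 on the log2 scale, against 51.6% above 0 and a median of 0.01 over all 25615 probes tested. In the fit across all probes with limma and Benjamini-Hochberg adjustment at 0.05, 6 collagen probes of 5 genes were higher in the hearts labelled SIRT1 KO and 0 were lower. This balance depends on the scaling of the arrays, with 3 higher and 1 lower when each array's median is subtracted and 3 higher and 8 lower without scaling, and over all probes 81.2% of calls were higher with the 75th percentile, 38.7% with the median and 10.1% without scaling. Over all probes, 4.91% were called, 3.99% higher and 0.925% lower. The 6 collagen calls include a *Col24a1* probe that was well above background in only 1 of 4 WT hearts. At an unadjusted p under 0.05 there were 16 higher and 1 lower collagen probes, and 21.5% of all probes passed that mark in either direction. Of the 25615 probes tested, 3408 passed it as higher and 2088 as lower. The genotypes did not overlap for 10 collagen probes that were higher and 1 that was lower, where all probes gave 8.53% and 5.23%. In whole hearts, fewer cells of a type and less RNA per cell cannot be told apart, and with 1 heart per array the p-values measure the spread between these hearts.

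Among the 3 classes, the fibrillar collagens held 4 of the calls in 18 tested probes of all 11 genes. Over all probes 3.99% were called higher, and 7.81% in the dimmest of 3 equal parts by mean signal, which holds 8 of these 18 probes. One of the 4, of *Col24a1*, entered the test only through the hearts labelled SIRT1 KO, and a filter on all 8 arrays removes it. This class had 11 probes above 0 and 7 below, with a median log2 difference of 0.05. Basement membrane collagens had 13 tested probes of 7 genes, with 1 call. Of these, 10 lay below 0 and 3 above, and the median was -0.09. The 24 tested probes of the other collagens, of 19 of the 25 genes, included 1 call. In that class 17 lay above 0 and 7 below, with a median of 0.23. The single calls in 13 and in 24 probes are near the share over all probes and do not set these classes apart. No test of the difference between classes was run, and the plot of log2 differences by class shows that most intervals cross 0 in each.

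**Figure D1:**
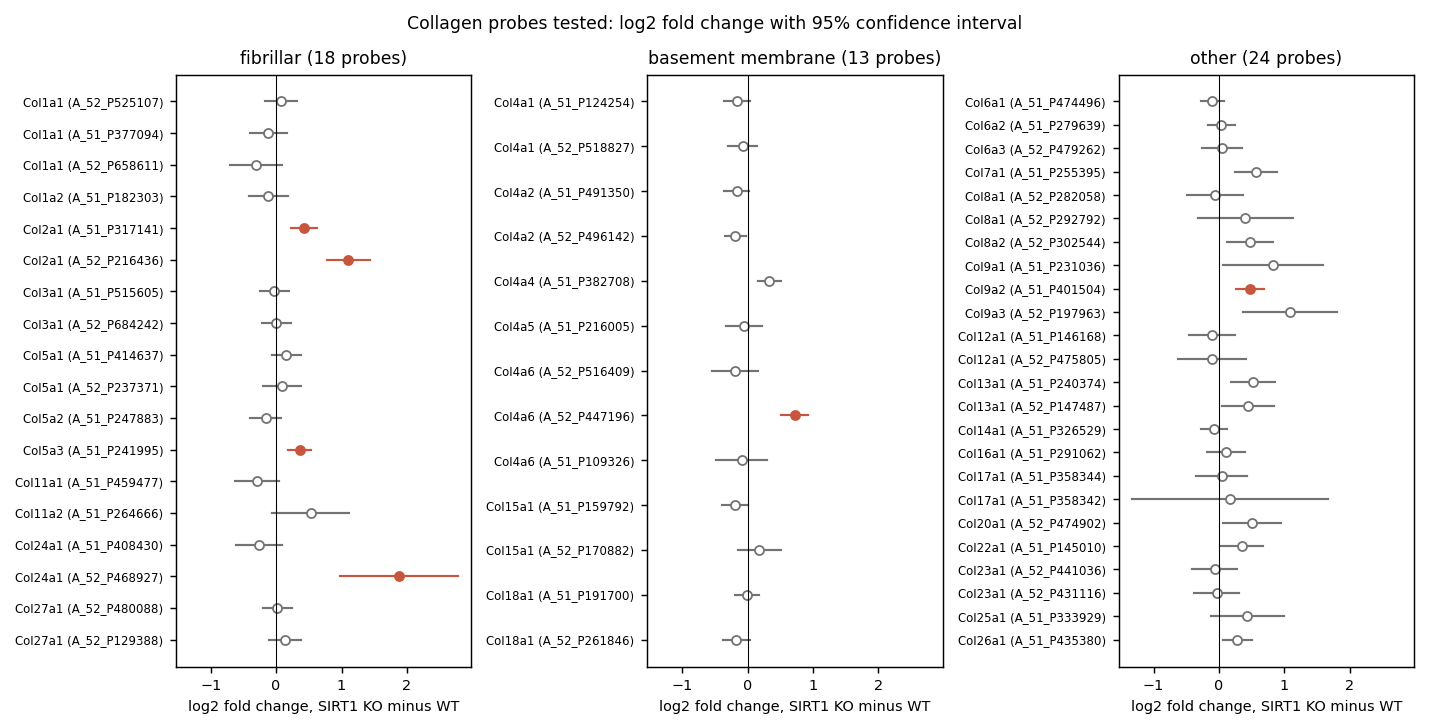
Log2 fold change (SIRT1 KO minus WT, x axis) of each of the 55 tested collagen probes (y axis, gene and probe), in panels for fibrillar, basement membrane and other collagens. Points are estimates from limma and lines their 95% confidence intervals; the 6 filled red points passed the threshold, all to the right of 0, and the 3 panels share 1 scale.

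*Col2a1*, the chain of the main fibril collagen of cartilage, which embryonic valve tissue also makes, rose on both of its probes. The log2 signal of probe A_52_P216436 was -4.29, -4.37, -4.70 and -4.25 in the WT hearts and -3.33, -2.93, -3.44 and -3.49 in the hearts labelled SIRT1 KO. All hearts labelled SIRT1 KO lay above all WT hearts, by a log2 difference of 1.10 ± 0.15 (SE; limma, adjusted p = 0.00438), or 2.15-fold. Probe A_51_P317141 read 0.04, 0.25, -0.005 and 0.07 in the WT hearts and 0.60, 0.64, 0.39 and 0.45 in the hearts labelled SIRT1 KO. The genotypes were again apart, but the log2 difference was smaller, at 0.43 ± 0.09 (SE; limma, adjusted p = 0.0296), and this call is lost with median scaling, without scaling, with no filter on dim probes and in the methods' analysis of variance.

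*Col4a6*, a chain of the minor type IV network of some basement membranes, rose on 1 probe of 3. That probe (A_52_P447196) read -3.07, -3.15, -2.99 and -2.99 in the WT hearts and -2.30, -2.24, -2.23 and -2.55 in the hearts labelled SIRT1 KO, which is a log2 difference of 0.72 ± 0.09 (SE; limma, adjusted p = 0.00374), or 1.65-fold. The genotypes were apart, and the WT hearts spread over less than 0.2 log2 units. The brightest *Col4a6* probe (A_52_P516409) read 0.62, 0.80, 0.56 and 0.97 in the WT hearts and 0.47, 0.97, 0.28 and 0.48 in the hearts labelled SIRT1 KO, with overlapping genotypes and a log2 difference of opposite sign, -0.19 (95% confidence interval -0.54 to 0.16). The remaining probe (A_51_P109326) had -0.09 (limma, adjusted p = 0.796). The 3 probes of this gene thus do not give 1 reading of it.

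*Col5a3* encodes a less common chain of type V collagen, which lies within type I fibrils and helps set their diameter. Its tested probe (A_51_P241995) read -0.33, -0.06, -0.13 and -0.10 in the WT hearts and 0.22, 0.24, 0.21 and 0.14 in the hearts labelled SIRT1 KO. Every heart labelled SIRT1 KO was above every WT heart, by a log2 difference of 0.36 ± 0.08 (SE; limma, adjusted p = 0.0356). The call is lost with median scaling, without scaling, with no filter on dim probes, in the methods' analysis of variance and with the replicate number as a block. *Col24a1*, a minor fibrillar collagen known from developing bone, rose on 1 of 2 probes. Probe A_52_P468927 read -6.29, -6.07, -6.57 and -5.16 in the WT hearts and -3.56, -3.51, -5.07 and -4.42 in the hearts labelled SIRT1 KO, which is a log2 difference of 1.88 ± 0.40 (SE; limma, adjusted p = 0.0317). It was well above background in 1 of 4 WT hearts and 4 of 4 of the others, so it was tested because of the group in which it is high, and 3 of its WT values are not well above background. The probe does not pass with no filter on dim probes or in the analysis of variance. The other *Col24a1* probe (A_51_P408430), above background on all arrays, had a log2 difference of -0.26 (95% confidence interval -0.62 to 0.10).

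*Col9a2* belongs to type IX collagen, which decorates the surface of type II fibrils. Its probe (A_51_P401504) read -1.48, -1.41, -1.65 and -1.28 in the WT hearts and -0.87, -1.01, -1.01 and -1.05 in the hearts labelled SIRT1 KO. The lowest heart labelled SIRT1 KO was above the highest WT heart, and the log2 difference was 0.47 ± 0.09 (SE; limma, adjusted p = 0.0234). The same 5 alternatives that end the *Col5a3* call end this one.

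**Figure D2:**
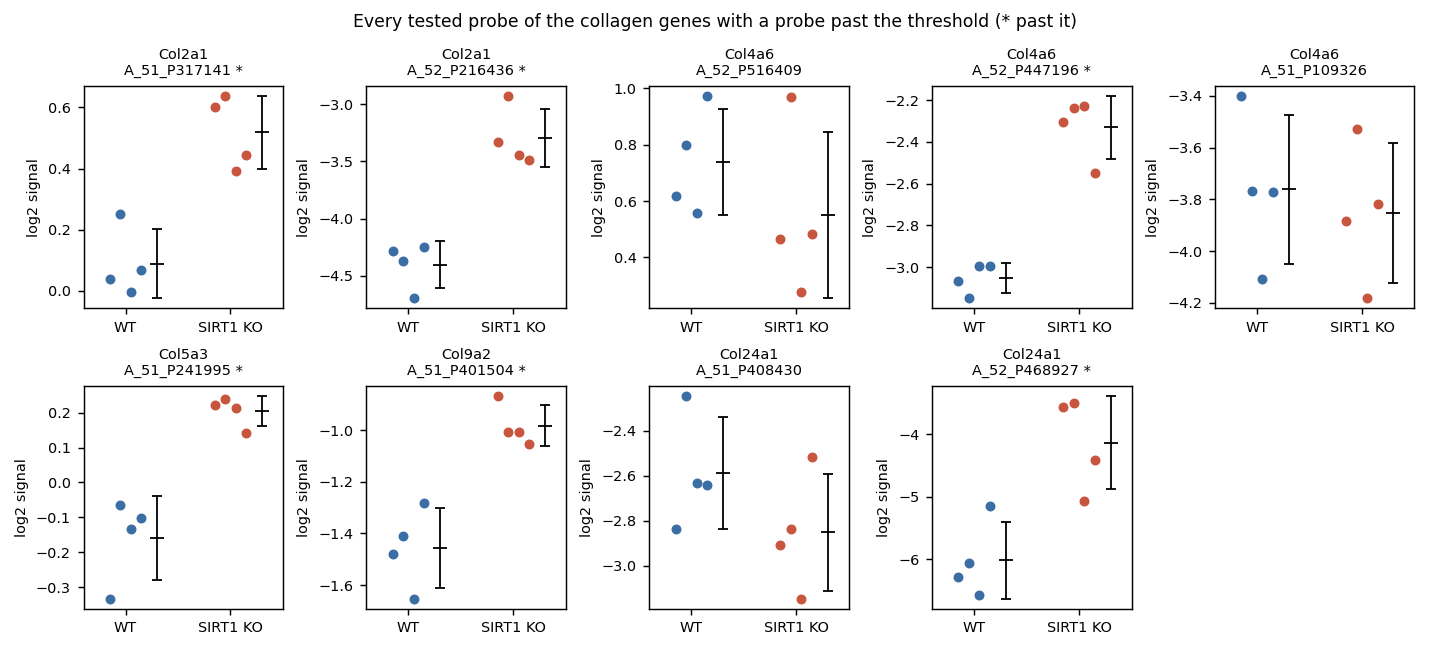
Log2 signal (y axis, log2 of intensity relative to the 75th percentile of the array, a separate scale in each panel) by genotype (x axis) for every tested probe of the 5 genes with a called probe, 1 point per heart. Bars are means with SD (n = 4), and an asterisk marks the 6 called probes; in these the genotypes do not overlap, while in the other *Col4a6* and *Col24a1* probes they do.

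The calls differed in how far they rested on single hearts. *Col2a1* probe A_52_P216436 and *Col4a6* probe A_52_P447196 passed in all 8 fits that left out 1 heart, with log2 differences between 0.98 and 1.17 and between 0.69 and 0.79. *Col2a1* probe A_51_P317141 and *Col9a2* passed in 3 of these fits, and *Col5a3* and *Col24a1* in 2, with no change of sign. The number of collagen probes called higher, 6 with all hearts, was 3 without WT heart 1, 3 without WT heart 2, 2 without WT heart 3 and 4 without WT heart 4. It was 2 without heart 1 labelled SIRT1 KO, 2 without heart 2, 9 without heart 3 and 5 without heart 4.

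The collagens that make up most of the heart's matrix did not pass the threshold in either direction. Over 12 such genes fixed by name, 20 probes were tested, of which 7 lay above 0 and 13 below, with a median log2 difference of -0.09 and 0 calls. One of these 20 had an unadjusted p under 0.05. Of the 20, 15 lie in the brightest of 3 equal parts by mean signal, where 1.11% of all probes were called higher and 0.714% lower, so 0 calls do not set these genes apart. *Col1a1* and *Col1a2* encode the chains of type I collagen, the main fibril of the interstitium. The brightest *Col1a1* probe (A_52_P525107) read 5.28, 5.68, 5.41 and 5.64 in the WT hearts and 5.69, 5.68, 5.45 and 5.50 in the hearts labelled SIRT1 KO, with overlapping genotypes and a log2 difference of 0.08 (95% confidence interval -0.17 to 0.32). The other *Col1a1* probes had -0.12 and -0.31. The *Col1a2* probe (A_51_P182303) read 6.03, 6.21, 6.05 and 6.28 in the WT hearts and 6.20, 6.20, 6.04 and 5.64 in the hearts labelled SIRT1 KO, which is a log2 difference of -0.12 (95% confidence interval -0.42 to 0.18). Heart 4 labelled SIRT1 KO was the lowest of the 8, and without it the value was 0.0056.

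*Col3a1*, the type III collagen that accompanies type I in compliant tissue, read 6.14, 6.36, 6.08 and 6.46 in the WT hearts and 6.15, 6.29, 6.21 and 6.26 in the hearts labelled SIRT1 KO on its brightest probe (A_51_P515605). The log2 difference was -0.03 (95% confidence interval -0.25 to 0.19), and its other probe had 0.01. Type V chains other than *Col5a3* gave 0.16 and 0.09 on the *Col5a1* probes and -0.16 for *Col5a2*. The chains of type VI collagen, which form beaded filaments around cells, gave -0.11 for *Col6a1* (95% confidence interval -0.28 to 0.07), 0.03 for *Col6a2* and 0.04 for *Col6a3*. The 12 tested probes of these interstitial genes had a median of -0.01, with 6 above 0 and 6 below. All of their intervals held 0.

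**Figure D3:**
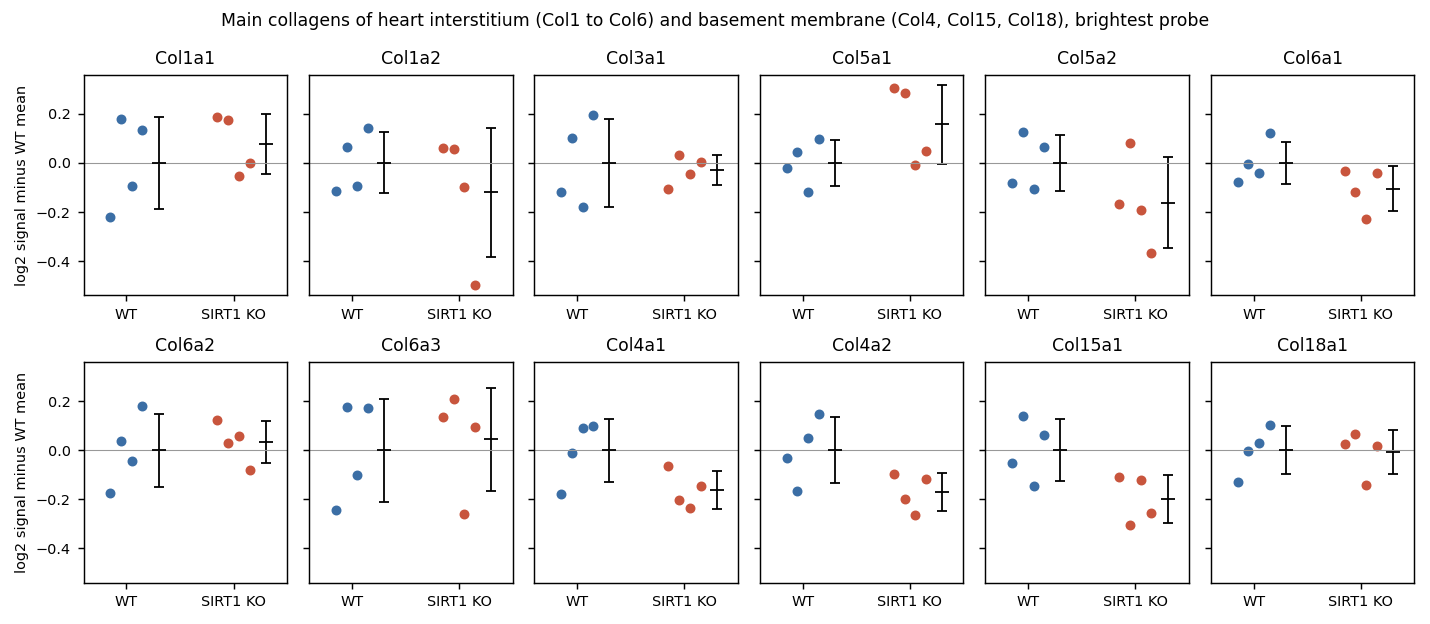
Log2 signal minus the WT mean of the same probe (y axis, 1 scale in all panels) by genotype (x axis) for the brightest probe of 12 main collagens of the heart, 1 point per heart with mean and SD (n = 4). The genotypes overlap in every panel, and all 4 hearts labelled SIRT1 KO lie below the WT mean for *Col4a1*, *Col4a2*, *Col15a1* and *Col6a1*.

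The vascular and pericellular basement membrane genes lay lower on 7 of 8 probes, none past the threshold, with a median log2 difference of -0.17. The brightest *Col4a1* probe (A_51_P124254) read 3.93, 4.10, 4.20 and 4.21 in the WT hearts and 4.05, 3.91, 3.88 and 3.97 in the hearts labelled SIRT1 KO, which is a log2 difference of -0.16 (95% confidence interval -0.35 to 0.03). For its head-to-head neighbour *Col4a2*, probe A_52_P496142 read 1.69, 1.74, 1.91 and 1.87 in the WT hearts and 1.62, 1.62, 1.60 and 1.62 in the hearts labelled SIRT1 KO. On that probe the hearts labelled SIRT1 KO were all below the WT hearts and within 0.03 log2 units of each other, and the log2 difference was -0.19 ± 0.07 (SE; limma, adjusted p = 0.18). The brightest *Col4a2* probe (A_51_P491350) overlapped between genotypes at -0.17, and the other *Col4a1* probe had -0.07. *Col15a1* and *Col18a1* encode multiplexins, collagens of the vessel and muscle basement membrane whose ends can be cut off as fragments such as endostatin. The *Col15a1* probes had -0.20 and 0.18 and the *Col18a1* probes -0.01 and -0.17, so that the probes of *Col15a1* differed in sign. The positive value of *Col15a1* ran from 0.06, without WT heart 4, to 0.28 with 1 heart left out, and was -0.04 without scaling. With the median of each array in place of the 75th percentile, *Col4a2* probe A_52_P496142 passed the threshold as lower (the median of all log2 differences then moves to -0.12). Without scaling, 8 collagen probes passed as lower, and the median of all probes moves to -0.21.

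Of the remaining type IV chains, *Col4a4* lay just outside the threshold. It passed in 6 of 14 alternatives of the processing and in 0 of 8 fits with 1 heart left out. Its probe (A_51_P382708) read -1.44, -1.33, -1.41 and -1.28 in the WT hearts and -1.17, -0.996, -0.90 and -1.06 in the hearts labelled SIRT1 KO, without overlap, a log2 difference of 0.33 ± 0.08 (SE; limma, adjusted p = 0.0506). With *Col4a3* and *Col4a5*, it makes the network known from the filtration barrier of the kidney. *Col4a5* had -0.05, and neither *Col4a3* probe was tested.

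The collagens that attach to fibrils or span the membrane gave several values near the threshold, other than *Col9a2*, and no calls in the fit across all probes. Of the alternatives, *Col7a1* passed in 7 of 22, *Col13a1* probe A_51_P240374 in 5 of 22 and *Col9a3* in 4 of 21. *Col8a2* passed in 2 of 22 and *Col25a1* in 0 of 20. Type IX chain *Col9a3* read -5.61, -4.91, -5.53 and -5.67 in the WT hearts and -4.54, -3.40, -5.00 and -4.47 in the hearts labelled SIRT1 KO (A_52_P197963), which is a log2 difference of 1.08 ± 0.32 (SE; limma, adjusted p = 0.0932). WT heart 2 lay within the range of the hearts labelled SIRT1 KO, and the probe was above background in only 2 of 4 WT hearts. *Col8a2*, a chain of the short network collagen of vessel walls and the cornea, read -1.41, -1.52, -2.02 and -1.57 in the WT hearts and -1.02, -0.92, -1.29 and -1.38 in the hearts labelled SIRT1 KO (A_52_P302544). The genotypes did not overlap, and the log2 difference was 0.48 ± 0.15 (SE; limma, adjusted p = 0.121). *Col8a1*, which partners it, gave -0.06 and 0.40 on its probes. Transmembrane *Col13a1*, known from the neuromuscular junction, read -0.65, -0.33, -0.60 and -0.70 in the WT hearts and 0.01, 0.30, -0.38 and -0.14 in the hearts labelled SIRT1 KO on its brighter probe (A_51_P240374), where heart 3 labelled SIRT1 KO fell below the highest WT heart. The log2 differences of its probes were 0.52 and 0.45 (limma, adjusted p = 0.0873 and 0.188), the latter on a probe above background in 3 of 4 hearts of each genotype. Transmembrane *Col25a1* had 0.43 (95% confidence interval -0.13 to 0.99; limma, adjusted p = 0.351). Its probe was above background in 3 of 4 WT hearts and 2 of 4 hearts labelled SIRT1 KO. *Col7a1*, named here after its values were seen, forms the anchoring fibrils beneath the epidermis. It read -0.72, -1.19, -1.06 and -0.99 in the WT hearts and -0.40, -0.40, -0.74 and -0.16 in the hearts labelled SIRT1 KO (A_51_P255395), which is a log2 difference of 0.56 ± 0.14 (SE; limma, adjusted p = 0.0579), with WT heart 1 inside the range of the other genotype.

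By subclass, the fibril-associated collagens had 9 tested probes, 6 above 0 and 3 below, with a median log2 difference of 0.35 and the 1 call of *Col9a2*. Short network collagens had 3 tested probes with a median of 0.40, the value of *Col8a1* probe A_52_P292792, which was above background in 2 of 4 WT hearts and 3 of 4 hearts labelled SIRT1 KO and ran from 0.10, without WT heart 4, to 0.59 with 1 heart left out. Transmembrane collagens had 7 with a median of 0.17, the value of a *Col17a1* probe (A_51_P358342) above background in 5 of 8 hearts, which ran from -0.54 to 0.50 with 1 heart left out. Beaded filament collagens had 3 with a median of 0.03, and the 2 tested probes left over, of *Col7a1* and *Col26a1*, had a median of 0.42. None of the probes of these 4 subclasses was called. Of 16 collagen genes with several tested probes, 10 had probes of 1 sign and 6 of opposite signs, *Col1a1*, *Col3a1*, *Col4a6*, *Col8a1*, *Col15a1* and *Col24a1*. Without scaling 3 genes had probes of opposite signs, *Col4a6*, *Col8a1* and *Col24a1*. Beside the cartilage collagens of the next paragraph, the tested members not yet described are *Col12a1*, *Col14a1*, *Col16a1*, *Col17a1*, *Col20a1*, *Col22a1*, *Col23a1*, *Col26a1* and *Col27a1*. Their log2 differences ran from -0.11 for *Col12a1* to 0.50 for *Col20a1*, and none was called. *Col22a1*, a collagen of tissue junctions such as that of muscle and tendon, was apart between genotypes at 0.35 ± 0.15 (SE; limma, adjusted p = 0.217).

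The collagens known from cartilage were set apart as a group after their values were seen, so their counts are a description without a test. Of 7 tested probes of 6 of these 7 genes, 6 lay above 0, 3 were called (both *Col2a1* probes and *Col9a2*), and the median log2 difference was 0.53, where 3.99% of all probes were called higher. *Col9a1* read -4.22, -3.36, -3.40 and -3.47 in the WT hearts and -2.91, -1.76, -3.22 and -3.25 in the hearts labelled SIRT1 KO (A_51_P231036). The genotypes did not overlap, but the spread within each was wide, and the log2 difference was 0.83 ± 0.34 (SE; limma, adjusted p = 0.198). *Col11a2*, a chain of the type XI collagen at the core of cartilage fibrils, had 0.53 (95% confidence interval -0.06 to 1.12). *Col11a1*, its partner, had -0.29 (95% confidence interval -0.63 to 0.05), the 1 value of this group below 0. *Col10a1*, the collagen of hypertrophic cartilage, was well above background on no array.

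No cartilage marker other than the collagens passed the threshold. Over all tested probes 4.91% did, so 0 calls in 8 tested probes do not set these markers apart. *Matn1*, *Matn3*, *Cnmd* and *Snorc* were well above background on no array, and the 8 tested probes of the other 6 markers gave 0 calls with limma and 1 unadjusted p under 0.05, that of *Ucma*. Their summed signal lay between 1.39 and 2.25 times the 75th percentile in the WT hearts and between 1.42 and 2.04 times in the hearts labelled SIRT1 KO, so the ranges overlapped. Of the 8 tested probes, 4 lay above 0 and 4 below, with a median log2 difference of 0.04. *Acan*, the large proteoglycan of cartilage, had a log2 difference of -0.10, and *Ucma*, a secreted protein of cartilage, had 0.94 (limma, adjusted p = 0.119) with no overlap. The lowest value of the list was that of *Comp*, -0.39. In the valve and cushion list, 6 of 14 tested probes lay above 0 and 8 below, with a median of -0.01, and the transcription factor gene *Scx*, known from tendons and valves, rose by 0.48 ± 0.11 (SE; limma, adjusted p = 0.044) and was the 1 call, where 4.91% of all probes were called. The summed signal of that list lay between 8.30 and 9.12 times in the WT hearts and between 9.44 and 10.1 times in the hearts labelled SIRT1 KO, without overlap. Between 32.2% and 51.8% of that sum came from *Scx*, and without it the sum lay between 4.76 and 6.18 times in the WT hearts and between 4.81 and 5.55 times in the others, with overlap. What part the valves have in the collagen values was not tested.

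**Figure D4:**
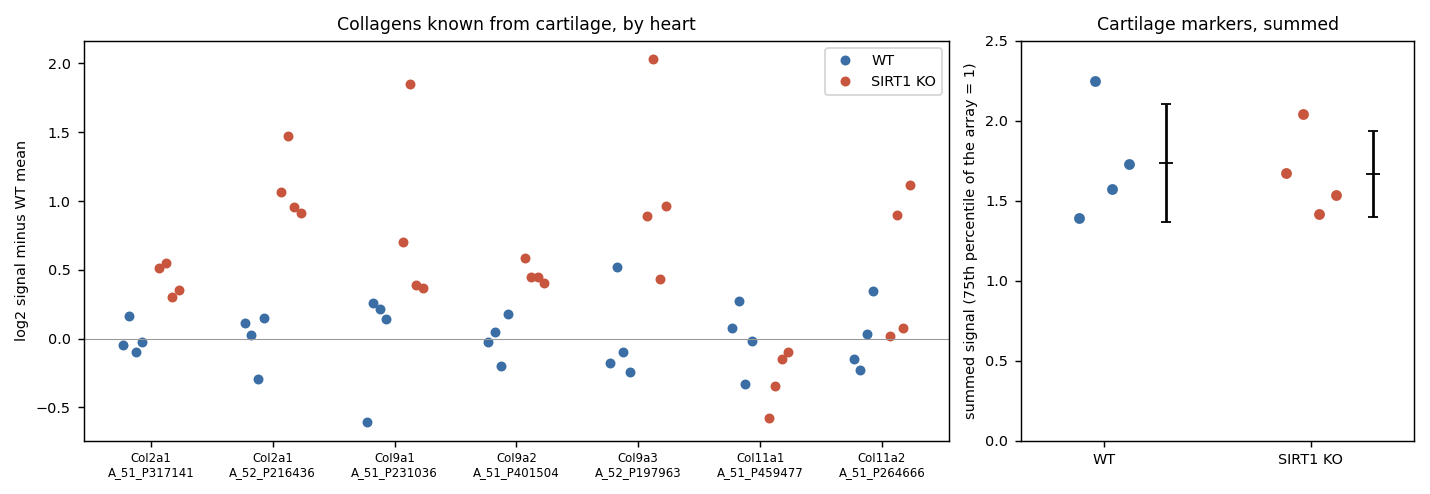
Left, log2 signal minus the WT mean of the same probe (y axis) for the 7 tested probes of collagens known from cartilage (x axis), 1 point per heart. Right, summed signal of the cartilage markers other than collagens in each heart (y axis, multiples of the 75th percentile), with mean and SD (n = 4); 6 of 7 probes lie higher on average in the hearts labelled SIRT1 KO, while the marker sums overlap (WT 1.39 to 2.25, SIRT1 KO 1.42 to 2.04).

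The 21 collagen probes that were not tested included every probe of 7 genes, *Col4a3*, *Col6a4*, *Col6a5*, *Col6a6*, *Col10a1*, *Col19a1* and *Col28a1*. Of these, a probe of *Col4a3* was well above background on 1 array and that of *Col6a6* on 3, and the rest on 0.

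The share of calls differed with the brightness of a probe on the array as a whole. Over all tested probes, 7.81% in the dimmest of 3 equal parts by mean signal were called higher, 3.03% in the middle part and 1.11% in the brightest. The shares called lower were 1.04%, 1.02% and 0.714%. For collagens these parts held 21, 15 and 19 probes, with 3, 3 and 0 calls. The collagen medians were 0.35, 0.02 and -0.08 on the log2 scale. In the brightest part 13 of 19 collagen probes lay below 0. What part brightness has in the collagen values was not tested.

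Genes that make, cut, bind and degrade collagen were examined as lists. Of 30 probes of 22 genes that modify and fold collagen chains in the endoplasmic reticulum, 0 were called. Over all probes 4.91% were called, so this count does not set the list apart. Of the 30, 22 lay below 0, with a median log2 difference of -0.08. Among the tested probes of this list at an unadjusted p under 0.05, 1 was higher and 3 were lower, where 21.5% of all probes passed that mark. *Ppib*, a prolyl isomerase of collagen folding, had the smallest p of the brightest probes, at -0.24 ± 0.09 (SE; limma, adjusted p = 0.185). Of 17 tested probes for procollagen processing and cross-linking, 1 was called, where 4.91% of all probes were called in either direction. *Adamts14*, which cuts the amino-terminal propeptide from fibrillar procollagens, rose on its brighter probe (A_52_P170538) from -4.50, -4.49, -4.36 and -4.22 to -3.71, -3.93, -3.62 and -3.92. The genotypes did not overlap, and the log2 difference was 0.59 ± 0.10 (SE; limma, adjusted p = 0.0136), past the threshold in all 8 fits with 1 heart left out but not after quantile normalization or cyclic loess.

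Among 14 tested probes of proteins that assemble with fibrils, 1 was called, as lower, where 0.925% of all probes were. It belonged to *Fn1*, fibronectin, on which new collagen fibrils are laid down. This probe (A_52_P11817) read -0.77, -0.35, -0.60 and -0.56 in the WT hearts and -1.20, -0.85, -1.06 and -1.05 in the hearts labelled SIRT1 KO. The hearts labelled SIRT1 KO were all lower, by a log2 difference of -0.47 ± 0.11 (SE; limma, adjusted p = 0.0437). The brightest *Fn1* probe (A_51_P100856) was lower without overlap as well, at -0.38 ± 0.12 (SE; limma, adjusted p = 0.102), and did not pass.

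Of 16 tested probes of collagen receptors, 3 were called, 2 higher and 1 lower, where 3.99% and 0.925% of all probes were. *Itga1*, the alpha chain of an integrin for collagen, had calls of opposite sign. Its brightest probe (A_52_P459929) read 0.28, -0.01, -0.12 and 0.21 in the WT hearts and -0.37, -0.42, -0.28 and -0.30 in the hearts labelled SIRT1 KO, which is a log2 difference of -0.43 ± 0.10 (SE; limma, adjusted p = 0.0437). Probe A_52_P518922 read -1.41, -1.42, -1.61 and -1.25 in the WT hearts and 0.09, 0.10, -0.97 and -0.74 in the hearts labelled SIRT1 KO, which is a log2 difference of 1.04 ± 0.24 (SE; limma, adjusted p = 0.0437). The remaining *Itga1* probe (A_51_P268944) was lower without overlap, at -0.39 ± 0.12 (SE; limma, adjusted p = 0.114). The direction of *Itga1* is therefore not given. *Oscar*, a receptor of myeloid cells that binds collagen, rose by 0.76 ± 0.14 (SE; limma, adjusted p = 0.0179). Its probe was above background in 3 of 4 WT hearts. It lies in the dimmest of 3 equal parts by mean signal, where 7.81% of all probes were called higher. With 1 heart left out, *Oscar* passed in 5 of 8 fits, and the called *Fn1* probe and both *Itga1* probes in 2 of 8. None of the 5 called probes of these lists passed in the methods' analysis of variance. Of the alternatives of the processing, the *Fn1* probe passed in 11 of 14 and *Oscar* in 11 of 13. *Itga1* probe A_52_P459929 passed in 11 of 14 and A_52_P518922 in 10 of 14. Of 14 tested probes for collagenases and their inhibitors 0 were called, where 4.91% of all probes were. Of the 14, 11 lay above 0, with a median of 0.02, and 1 had an unadjusted p under 0.05, against 21.5% of all probes. The collagenase gene *Mmp8* had the smallest p of that list, at 0.40 ± 0.14 (SE; limma, adjusted p = 0.155).

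No fibroblast, endothelial or mural cell marker passed the threshold. Over all tested probes 4.91% did, so 0 calls do not set these markers apart. Of 13 tested probes for 10 cardiac fibroblast markers, 7 lay above 0 and 6 below. The summed signal of these markers lay between 168 and 181 times the 75th percentile in the WT hearts and between 183 and 204 times in the hearts labelled SIRT1 KO, without overlap, while 0 of the probes passed with limma (3 at an unadjusted p under 0.05) and their median log2 difference was 0.01. Between 84.1% and 89.3% of the sum came from *Vim* and *Gsn*, and without both it lay between 22.5 and 28.3 times in the WT hearts and between 21.7 and 26.4 times in the others, with overlap. Of all tested probes on the array, 21.5% had an unadjusted p under 0.05, and 8.53% were higher without overlap. Of the 3 fibroblast probes at an unadjusted p under 0.05, 2 were higher without overlap. They were *Gsn*, gelsolin, at 0.28 ± 0.08 (SE; limma, adjusted p = 0.0858), and *Pdgfra*, a growth factor receptor, at 0.21 ± 0.07 (SE; limma, adjusted p = 0.13). The third, *Fbln2*, fibulin of the matrix, was lower with overlap, at -0.28 ± 0.11 (SE; limma, adjusted p = 0.184). The 10 endothelial markers summed to between 75.1 and 78.4 times in the WT hearts and between 69.96 and 79.5 times in the others, and 9 of 11 probes lay below 0 with a median of -0.09 (2 at an unadjusted p under 0.05). The 11 mural cell markers summed to between 176 and 215 times and between 177 and 231 times, with 13 of 20 probes above 0 (3 at an unadjusted p under 0.05). The part of these cells in the collagen values was not tested.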

How the data were processed

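Total RNA of 8 hearts (500 ng each) was labelled with Cy3. The authors deposited the intensity of every spot as written by Agilent Feature Extraction (version 12.0.0.7 per the file headers, 12 per the labels), background-subtracted and not scaled between arrays, and their series table holds the same values for 100% of spots (within a relative tolerance of 1e-06). Here log2 intensities were taken, the 75th percentile over non-control, non-outlier spots was subtracted, spots of a probe were averaged, and probes well above background (in at least 0.5 of their spots) on at least 4 of 8 arrays were tested with limma 3.58.1 in R 4.3.3 (genotype only, Benjamini-Hochberg over all 25615 probes, threshold 0.05). Accessions were matched without versions to RefSeq genes of GRCm38.p6, which named 68.6% of 41174 probes.

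The members and gene lists were chosen with earlier results of these data known. Named are called collagens, the 2 genes with the smallest p in each of 6 subclasses, 12 main heart collagens, genes with probes of opposite sign of which 1 is called, and per pathway list the genes called on their brightest probe or else the gene with the smallest p. Genes outside this rule (*Col4a5*, *Col7a1*, *Col9a1*, *Col11a1*, *Col11a2*, *Col12a1*, *Col16a1*, *Col17a1*, *Col20a1*, *Col22a1*, *Col27a1*, *Acan*, *Ucma*, *Comp*, *Scx*, *Gsn*, *Vim*, *Pdgfra*, *Fbln2* and *Myh7*) were named after their values were seen. On simulated arrays with 200 probes changed by a log2 fold change of 1, the fit recovered 86.5%, and 4.95% of its calls were unchanged probes. Those arrays held independent noise and no difference of slide or scan day, so these shares do not measure the calls in the real hearts. Plots were drawn with matplotlib 3.10.9 in Python 3.11.15. The number of arrays limits the precision. Alternatives changed the background correction, scaling, filter, test, replicate block and probe of a gene, and left out each heart in turn. The methods' analysis of variance was run with genotype as its only factor, since its factors are not given in the sources used here.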

Additional observations from a re-analysis of the deposited data

Results flagged for a closer look

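In 4 of 110 groups of 4 hearts, taken over the 55 tested collagen probes and both genotypes, 1 heart stood apart from the other 3 by Dixon's test at the 95% level, which chance gives in about 1 group in 20. WT heart 1 read -4.22 for *Col9a1* (others -3.47 to -3.36) and -4.90 for *Col22a1* (others -4.31 to -4.27), both dim probes. Without that heart the log2 differences of these genes were 0.62 and 0.19, in place of 0.83 and 0.35, and neither passes with or without it. Heart 2 labelled SIRT1 KO read -5.18 on the dimmer *Col15a1* probe (others -4.79 to -4.76) and 2.99 for *Col16a1* (others 2.46 to 2.54). *Col16a1* is a collagen that attaches to fibrils and filaments in many tissues, and its log2 difference was 0.11, or -0.013 without that heart. The difference of the *Col15a1* probe was 0.18, or 0.28 without that heart. Neither passes with or without it.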

How the results depend on the processing

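The calls that passed in each of the 22 alternatives other than the brightest probe per gene were *Col2a1* A_52_P216436 and *Col4a6* A_52_P447196. Collagen probes called higher, 6 in the report, numbered 3 with no scaling or median scaling, with no filter on dim probes and for the brightest probe per gene, 2 with the methods' analysis of variance, 11 with array weights and 13 with normexp on the median signal, an alternative chosen after seeing the data because the files hold no mean signal, for which normexp was planned and not run. Probes called lower, 0 in the report, were 1 with median scaling and 8 without scaling. Fibrillar calls, 4 in the report, were 2 with no scaling, median scaling or the brightest probe, and 1 with no filter or the analysis of variance. Basement membrane calls, 1 in the report, were 0 with the brightest probe and 2 with the percentile over detected probes, normexp, array weights, an intensity trend, or a filter on all 8 arrays or all 4 of a genotype. Calls among other collagens, 1 in the report, were 0 with median scaling, no scaling or the analysis of variance, 2 under either stricter filter, 3 with an intensity trend, 5 with array weights and 7 with normexp. Pathway calls, 5 in the report, were 2 with quantile normalization or no filter, 9 with median scaling, 26 without scaling, 0 with the analysis of variance and 3 with the brightest probe. With 1 heart left out the counts ran from 2 to 9 for all collagens called higher, 1 to 4 for fibrillar, 0 to 4 for other collagens and 1 to 4 for pathway probes. The cause was not tested.

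Of all calls, 81.2% were higher in the report, 10.1% without scaling, 38.7% with median scaling, 63.9% after quantile normalization and 70.4% after cyclic loess. Over all probes 1258 were called in the report, 517 with the analysis of variance, 2461 with normexp, 2115 with array weights and 6352 without scaling. Without scaling the median log2 difference was -0.17 for fibrillar and 0.0068 for other collagens. Signs of values not past the threshold turned without scaling for *Col1a1* A_52_P525107 (-0.14), *Col3a1* A_52_P684242 (-0.21), *Col5a1* (-0.062 and -0.12), *Col6a2* (-0.19), *Col6a3* (-0.17), *Col15a1* A_52_P170882 (-0.039), *Col16a1* (-0.11), *Col17a1* (-0.18 and -0.047) and *Col27a1* (-0.20 and -0.084), 12 probes in all,, for 8 with median scaling, among them *Col6a2* (-0.0949), for 8 with quantile normalization, among them *Col27a1* A_52_P129388 (-0.037), and for 6 with cyclic loess. Genes with probes of opposite signs, 6 in the report, were 3, 7, 8 and 8 in that order, and those of *Col1a1* and *Col3a1* were all below 0 without scaling. The *Sirt1* probe A_52_P358612 kept its sign but did not pass with median scaling (0.41), without scaling (0.32), or with no filter, the analysis of variance or the replicate block (0.54 in each), and ran from 0.47 to 0.63 with 1 heart left out, passing in 2 of 8 such fits.

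Hearts with the same number deviated together in 3 of 4 numbers (correlations 0.20, 0.21, 0.06 and 0.14), which does not pair them, although each heart correlated best with its own number, a hint from the data and not the design. With the number as a replicate block, 6 collagen probes were called higher, 4 of them shared with the report, *Col5a3* and *Col9a2* being lost and *Col13a1* A_51_P240374 and *Col9a3* gained, which left 2 calls among other collagens.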
